A study of Homo sapiens with 18 samples.

Results

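The genes described here are 10 members of the ATF4-CHOP arm of the cellular stress response, namely ATF4, DDIT3, ATF5, CEBPB, CEBPG, TRIB3, PPP1R15A, DDIT4, SESN2 and NUPR1. They were taken by symbol from a count table of 43735 genes and followed across 6 groups of myeloma cells. A filter on low counts kept 8 of the 10 (all but SESN2 and NUPR1) among the 14281 genes tested. Averaged over both cell lines, RSL3 raised 7 of these 8 genes, all but ATF5, against 8.70% of all genes tested. The averaged log2 fold change was above 2 for PPP1R15A, DDIT4 and DDIT3. Between Fer-1 + RSL3 and RSL3 alone the main fit called no member. It called 0% of all genes in each line and 0.119% averaged over the lines. TRIB3 was called higher, averaged over the lines, when libraries were paired by passage (FDR 0.0175), in a fit that called 338 genes. Without the filter on low counts, TRIB3 and PPP1R15A were called for the average.

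When a cell cannot fold its proteins, lacks amino acids or heme, or holds viral RNA, a kinase phosphorylates the translation factor eIF2α. General protein synthesis then slows, while the mRNA of the transcription factor ATF4 is translated more. ATF4 pairs with C/EBP proteins and switches on genes of amino acid supply and, with prolonged stress, DDIT3, which encodes the death-linked factor CHOP. The pathway also carries its own brakes: PPP1R15A (GADD34) brings a phosphatase to eIF2α, and TRIB3 is a pseudokinase that restrains ATF4 and CHOP. Plasma cells and myeloma cells can secrete large amounts of antibody chains, and how far they use this pathway at the protein level was not measured here.

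MM1S and MM1R are established sister lines from human multiple myeloma, of which MM1S responds to glucocorticoids and MM1R resists them. Cells of each line were left untreated, were given 5 µM RSL3 for 3 h, or were given 2 µM Fer-1 for 2 h and then 5 µM RSL3 for 3 h. RSL3 inhibits GPX4, the enzyme that clears peroxidised lipids. Fer-1, or ferrostatin-1, is a radical trap that stops the iron-dependent death called ferroptosis. Each group held 3 libraries, from passages 4, 6 and 7 of MM1R and passages 16, 22 and 23 of MM1S, and each passage gave one library of every treatment. No group was given Fer-1 alone, and none was labelled as solvent only. Effects of Fer-1 itself or of a solvent thus cannot be told apart here. Each line is a single established line, so the libraries stand for passages and not for patients.

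The libraries held 17635438 to 19368343 counts, and levels are given as CPM, the usual depth-normalised read count, with TMM scaling for library composition. TMM factors were 0.864 in the RSL3 library of MM1S passage 16 and 0.927 to 1.06 in the others. Plasma cell markers were high in all libraries, with JCHAIN at 4810 CPM or more, while CD3D, LYZ, KRT8 and COL1A2 had a median of 0 CPM. Of the other markers of T cells, myeloid cells, epithelium and fibroblasts, CD3E reached 11.5 CPM and COL1A1 19.5 CPM, and their part in the results was not tested. NR3C1, which encodes the glucocorticoid receptor, separated the lines as labelled, with 13.8 to 22.3 CPM in 8 MM1R libraries and 89.9 to 392 CPM in MM1S. It stood at 50.2 CPM in the Fer-1 + RSL3 library of MM1R passage 6, and at its highest in the RSL3 library of MM1S passage 16. No call of a member changed side when the first of these libraries was left out, and values of PPP1R15A and DDIT4 without the second are given beside their results. In bulk RNA such as this, a change in every cell and a change in the share of cells that respond cannot be told apart.

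Sequence upstream of the members was searched for 2 motifs that ATF4 and its partners are known to bind, on both strands. These were the C/EBP-ATF composite element TGATGNAA and the palindromic cyclic AMP response element TGACGTCA, and no 8 letters can match both. Within 1000 bases before the start of the canonical transcript (GRCh37), which for DDIT3 and PPP1R15A lies inside the bounds of the gene given with their values, the composite element was found in 4 of the 10 members (DDIT3, DDIT4, SESN2 and NUPR1), against 11.4% of 20168 protein-coding genes. The palindrome was found in PPP1R15A alone, against 3.33% of those genes. In the shorter RefSeq promoters of GRCh38.p14, which run from 250 bases before to 50 bases after a start and were matched for 9 members, the composite element was found in CEBPG, against 3.62% of 35116 promoters, and the palindrome again in PPP1R15A, against 1.85%. The 4 windows below belong to members that rose with RSL3 and are shown to let a reader see the motif in its setting, with the match in capitals and 5′ to 3′ along the gene's strand. A match describes these letters only, and no binding was measured.
DDIT3, chr12:57914576-57914623 (GRCh37, minus strand), 306 bases before the start: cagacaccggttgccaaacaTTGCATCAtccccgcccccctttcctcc
DDIT4, chr10:74032716-74032763 (GRCh37, plus strand), 942 bases before the start: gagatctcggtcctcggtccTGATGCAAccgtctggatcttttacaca
PPP1R15A, chr19:49375600-49375647 (GRCh37, plus strand), 58 bases before the start: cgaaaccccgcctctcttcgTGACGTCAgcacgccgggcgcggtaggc
CEBPG, chr19:33374051-33374098 (GRCh38.p14, plus strand), 42 bases before the start: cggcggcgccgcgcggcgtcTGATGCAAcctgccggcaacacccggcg

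In untreated cells the members differed widely in level per length (RPKM, from the CPM and the length of the annotated canonical transcript). In MM1R, ATF4 lay far above the rest at 356 ± 12.7 RPKM (SD, n = 3), followed by TRIB3 at 26.8 ± 0.588. DDIT4 (19.3 ± 2.47) and PPP1R15A (17.9 ± 3.86) came next and lay within each other's spread, and ATF5 (13.9 ± 0.588) and CEBPG (12.7 ± 1.02) followed with ranges that only just overlapped. DDIT3 followed at 9.23 ± 1.83 RPKM and CEBPB was lowest at 3.76 ± 0.121. In MM1S, ATF4 was again highest at 434 ± 157 RPKM, and TRIB3 (25.8 ± 8.34) and PPP1R15A (25.8 ± 9.59) could not be ordered. CEBPG (14.7 ± 2.43), DDIT3 (12.1 ± 4.69) and ATF5 (9.37 ± 0.711) overlapped in part, and DDIT4 (6.12 ± 1.87) and CEBPB (6.05 ± 2.33) were the lowest. In MM1S the untreated library of passage 22 was the highest of the 3 for ATF4, DDIT3, CEBPB, CEBPG, TRIB3, PPP1R15A and DDIT4.

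**Figure D1:**
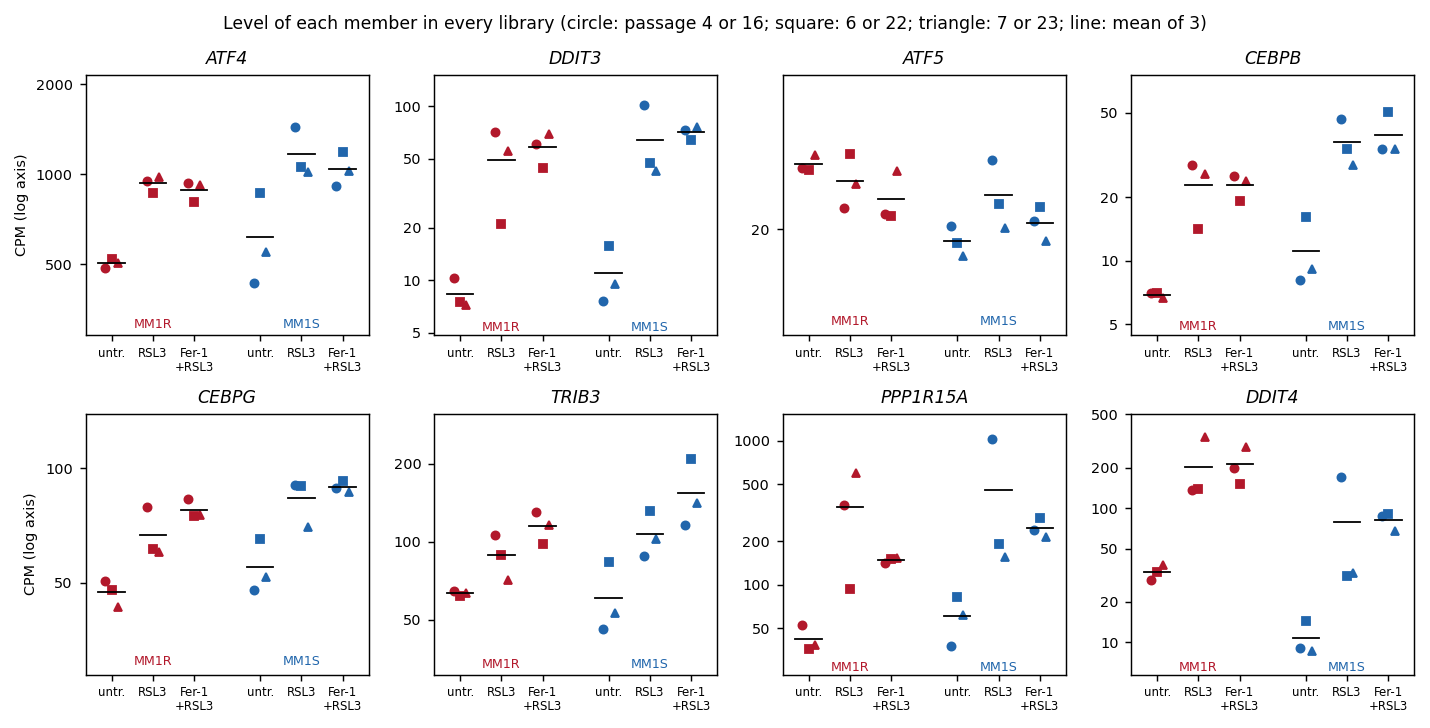
Level of the 8 tested members in every library, as CPM on a log axis, with 3 libraries for each line and treatment and a line at their mean. All RSL3 libraries lie above the untreated libraries of their line for every member but ATF5, and the libraries with Fer-1 + RSL3 overlap those with RSL3.

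The first comparison asks how the transcripts of this pathway differ between cells given RSL3 for 3 h and untreated cells. Averaged over the lines, 7 of 8 tested members had an FDR under 0.05 (quasi-likelihood F-test of edgeR, adjusted over all genes tested by the Benjamini-Hochberg method) and were higher, against 8.70% of all genes. In MM1R, 5 members were called higher (ATF4, DDIT3, CEBPB, PPP1R15A and DDIT4), against 2.00% of all genes, and in MM1S the same 5 and CEBPG, against 2.50%. In a fit with the passage as a replicate block, 7 members were called higher in each line. That fit called 1868 of 14281 genes in MM1R and 1904 in MM1S, in either direction. DDIT3, CEBPB, PPP1R15A and DDIT4 also had a log2 fold change over 1 in each line, against 1.06% of all genes in MM1R and 1.35% in MM1S. The median log2 fold change of the 8 members was 1.30 in MM1R and 1.32 in MM1S, where that of all genes was 0.00 in each. RSL3 and untreated libraries did not overlap for 7 members in each line, against 13.5% of all genes in MM1R and 12.6% in MM1S that lay wholly above. The members were chosen with earlier results of these data known, so these shares are no test of the set.

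ATF4 (22:39915700-39918688 on the plus strand, GRCh37) is the transcription factor at the head of the pathway. In MM1R it stood at 487, 523 and 505 CPM untreated and at 953, 868 and 977 CPM with RSL3 (passages 4, 6 and 7). In MM1S it stood at 435, 865 and 549 CPM untreated and at 1437, 1058 and 1021 CPM with RSL3 (passages 16, 22 and 23). Each RSL3 library thus lay above all untreated libraries of its line, and the smallest fold within a passage was 1.22, at passage 22. The log2 fold change was 0.89 (SE 0.19, FDR 0.0207) in MM1R and 0.93 (SE 0.19, FDR 0.0171) in MM1S. ATF4 is controlled mainly by translation, which these counts do not measure, and the annotation holds pseudogenes of ATF4 that could share its reads.

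DDIT3 (12:57910371-57915520 on the minus strand) encodes CHOP, a C/EBP family factor linked to stress-induced cell death. Untreated MM1R libraries held 10.2, 7.52 and 7.24 CPM, and RSL3 libraries 71.1, 21.1 and 55.4 CPM. Untreated MM1S libraries held 7.62, 15.7 and 9.54 CPM, and RSL3 libraries 101, 47.0 and 42.3 CPM. The rise was thus seen in all 6 passages, by 2.80-fold to 13.3-fold, and was lowest in MM1R passage 6. The log2 fold change was 2.56 (SE 0.41, FDR 0.00467) in MM1R and 2.53 (SE 0.40, FDR 0.00424) in MM1S. MARS1 (listed as MARS) overlaps DDIT3 on the other strand and held 219 to 397 CPM across the libraries, and whether counting used strand is not given in the sources used here.

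The partners of ATF4 rose to different degrees. CEBPB (20:48807367-48809205 on the plus strand), which encodes a C/EBP factor that pairs with ATF4, held 7.07, 7.03 and 6.66 CPM in untreated MM1R and 28.4, 14.1 and 25.7 CPM with RSL3. In MM1S it held 8.13, 16.04 and 9.19 CPM untreated and 47.0, 33.7 and 28.3 CPM with RSL3. RSL3 libraries were clear of the untreated ones in both lines, and the log2 fold change was 1.72 (SE 0.29, FDR 0.00568) in MM1R and 1.71 (SE 0.28, FDR 0.00489) in MM1S. CEBPB lies opposite its antisense gene CEBPB-AS1, which held 3.49 CPM or less.

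CEBPG (19:33864591-33873592 on the plus strand) encodes a C/EBP protein with no activation domain that is a common partner of ATF4. It held 50.6, 48.0 and 43.1 CPM in untreated MM1R and 79.1, 61.2 and 60.1 CPM with RSL3. In MM1S it held 47.8, 65.1 and 51.8 CPM untreated and 90.0, 89.9 and 70.0 CPM with RSL3. The groups did not overlap, but the change was small, at a log2 fold change of 0.60 (SE 0.14, FDR 0.0234) in MM1S. In MM1R it was 0.50 (SE 0.14) with an FDR of 0.0550, which became 0.00850 in a fit with the passage as a replicate block and 0.0173 by DESeq2, and also passed without the MM1S untreated library of replicate 2 (FDR 0.0461) or the MM1S RSL3 library of replicate 1 (0.0289) or 3 (0.0413).

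ATF5 (19:50431959-50437192 on the plus strand), an ATF4 relative that acts in mitochondrial stress, was the exception. It held 27.4, 27.1 and 29.3 CPM in untreated MM1R and 22.3, 29.4 and 25.2 CPM with RSL3. In MM1S it held 20.3, 18.7 and 17.5 CPM untreated and 28.5, 22.7 and 20.2 CPM with RSL3. The groups overlapped in both lines, and the log2 fold change was -0.12 (95% interval -0.42 to 0.18, FDR 0.720) in MM1R and 0.34 (0.04 to 0.64, FDR 0.201) in MM1S. Genes that include NUP62 and IL4I1 overlap ATF5 on the other strand, and the part of their reads in its counts was not tested.

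PPP1R15A (19:49375469-49379316 on the plus strand), the stress-induced eIF2α phosphatase subunit, had a large and uneven rise. Untreated MM1R libraries held 52.4, 35.7 and 38.0 CPM, and RSL3 libraries 355, 93.0 and 598 CPM. Untreated MM1S libraries held 37.6, 82.6 and 61.4 CPM, and RSL3 libraries 1024, 191 and 157 CPM. Within a passage the fold ran from 2.31 in MM1S passage 22 to 27.3 in MM1S passage 16. The log2 fold change was 3.05 (SE 0.65, FDR 0.0176) in MM1R and 2.92 (SE 0.64, FDR 0.0211) in MM1S, where it was 1.53 (FDR 0.136) without the RSL3 library of replicate 1.

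TRIB3 (20:343479-378203 on the plus strand), the pseudokinase brake on ATF4 and CHOP, rose when both lines were averaged. It held 64.5, 61.7 and 63.2 CPM in untreated MM1R and 106, 88.6 and 71.3 CPM with RSL3. In MM1S it held 46.0, 83.1 and 53.2 CPM untreated and 88.2, 131 and 102 CPM with RSL3. Every passage was higher with RSL3, by 1.13-fold to 1.92-fold. The log2 fold change was 0.65 (SE 0.16, FDR 0.0133) averaged over the lines. In the single lines it was 0.49 (SE 0.23, FDR 0.270) in MM1R and 0.82 (SE 0.23, FDR 0.0569) in MM1S, and with the passage as a replicate block 0.47 (FDR 0.0130) and 0.85 (FDR 0.000711). The MM1S value also passed by DESeq2 (FDR 0.0144), and without the untreated library of replicate 2 (FDR 0.0295) or without the Fer-1 + RSL3 library of replicate 1 (0.0489) or 2 (0.0451).

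DDIT4 (10:74033678-74035794 on the plus strand) encodes REDD1, an inhibitor of the growth kinase complex mTORC1. Untreated MM1R libraries held 29.4, 33.6 and 38.0 CPM, and RSL3 libraries 137, 138 and 336 CPM. Untreated MM1S libraries held 9.01, 14.5 and 8.63 CPM, and RSL3 libraries 172, 31.0 and 33.0 CPM. The groups were separate in both lines, although passages 22 and 23 of MM1S stayed close to the untreated level of MM1R. The log2 fold change was 2.60 (SE 0.54, FDR 0.0152) in MM1R and 2.87 (SE 0.56, FDR 0.0116) in MM1S, where it was 1.58 without the RSL3 library of replicate 1 and still passed.

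Averaged over both lines, the log2 fold changes were 0.91 (SE 0.14, FDR 0.000468) for ATF4, 2.55 (SE 0.29, FDR 6.6e-05) for DDIT3 and 1.71 (SE 0.20, FDR 8.37e-05) for CEBPB. They were 2.98 (SE 0.46, FDR 0.000531) for PPP1R15A, 2.73 (SE 0.39, FDR 0.000307) for DDIT4 and 0.55 (SE 0.10, FDR 0.0014) for CEBPG. Without the RSL3 library of MM1S replicate 1 they were 2.29 for PPP1R15A and 2.09 for DDIT4. All 7 averaged calls held when each of the 18 libraries was left out in turn. Within a line, the calls of DDIT3 and CEBPB held in all 18 fits, while others were lost in some fits that left 1 library out. Over the 18 fits the log2 fold change of ATF4 ran from 0.86 to 0.93 in MM1R and from 0.73 to 1.26 in MM1S. That of PPP1R15A ran from 2.42 to 3.50 in MM1R and from 1.53 to 3.32 in MM1S. In MM1R, ATF4 (FDR 0.0666 to 0.0767) and PPP1R15A (0.0591 to 0.0860) lost their calls without any one of the 3 untreated libraries or without the RSL3 library of replicate 1 or 3, and DDIT4 (0.0573 to 0.0724) without any untreated library or the RSL3 library of replicate 3. In MM1S, ATF4 (0.0750 to 0.0892) lost its call without the RSL3 library of replicate 1 or the untreated library of replicate 1 or 3, and CEBPG (0.0582 to 0.132) without any of these or the RSL3 library of replicate 2. PPP1R15A (0.0528 to 0.136) lost its call in MM1S without any untreated library or the RSL3 library of replicate 1, and DDIT4 (0.0563 to 0.0726) without the untreated library of replicate 1 or 3.

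**Figure D2:**
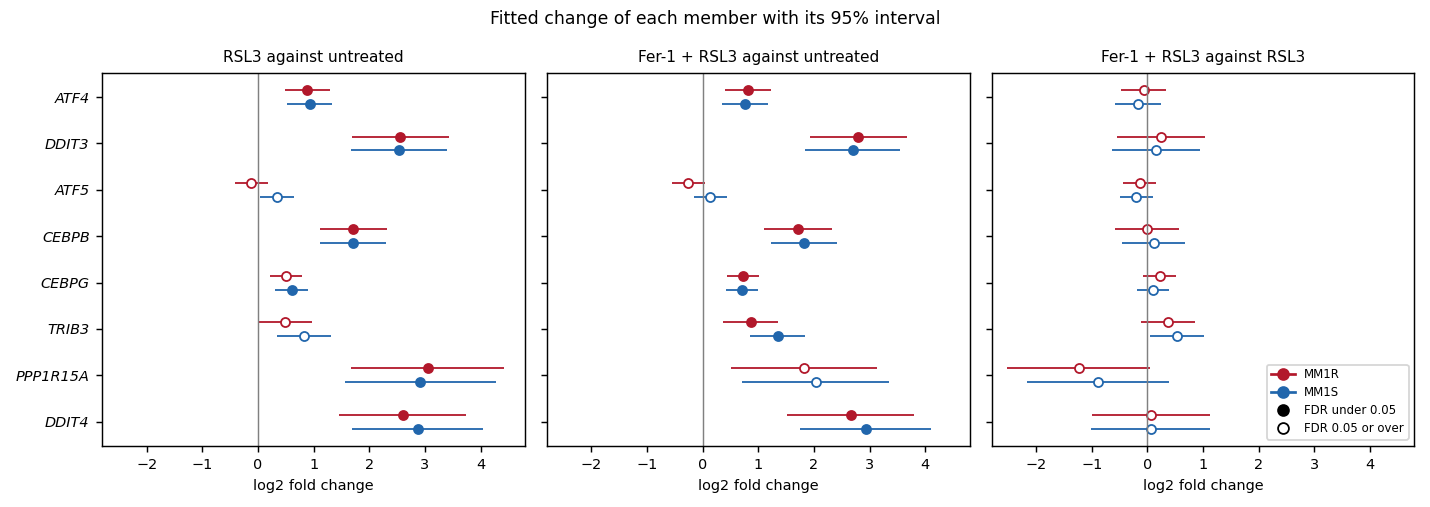
Fitted log2 fold change of each member in 3 comparisons, with 95% intervals and with filled points for an FDR under 0.05 (red MM1R, blue MM1S). The whole intervals of DDIT3, CEBPB and DDIT4 lie above 1 against untreated cells with and without Fer-1. The points of PPP1R15A also lie above 1, but with Fer-1 its intervals start at 0.50 in MM1R and 0.71 in MM1S. Every interval for Fer-1 + RSL3 against RSL3 includes 0 except that of TRIB3 in MM1S (0.04 to 1.01).

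The rise with RSL3 differed between passages of the same line, and the members did not share one order. In MM1S, the fold over untreated cells of the same passage was highest at passage 16 for ATF4 (3.30), DDIT3 (13.3), CEBPB (5.78), PPP1R15A (27.3) and DDIT4 (19.1), and lowest at passage 22 for these 5 genes (1.22, 2.99, 2.10, 2.31 and 2.14). TRIB3 stood at 1.92-fold at passages 16 and 23 alike and was lowest at passage 22 (1.58), while CEBPG was lowest at passage 23 (1.35). The untreated library of passage 22 was the highest of MM1S for each of these genes. With RSL3, passage 22 lay above passage 23 for ATF4 (1058 against 1021 CPM), DDIT3 (47.0 against 42.3) and CEBPB (33.7 against 28.3). The same held for PPP1R15A (191 against 157 CPM) but not for DDIT4 (31.0 against 33.0). In MM1R, passage 6 had the lowest fold of ATF4 (1.66), DDIT3 (2.80), CEBPB (2.01), CEBPG (1.28), PPP1R15A (2.61) and DDIT4 (4.11), while TRIB3 had its lowest fold at passage 7 (1.13), where PPP1R15A had its highest in that line (15.7). The RSL3 library of MM1S passage 16 also had the lowest TMM factor of all, and the part of library composition in its values was not tested.

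With Fer-1 before RSL3, the folds over untreated cells spread less. PPP1R15A ran from 2.69-fold to 6.36-fold within passages with Fer-1 + RSL3, where it ran from 2.31-fold to 27.3-fold with RSL3. DDIT4 ran from 4.53-fold to 9.70-fold in place of 2.14-fold to 19.1-fold, and CEBPB from 2.74-fold to 4.13-fold in place of 2.01-fold to 5.78-fold. The SD of the log2 folds over the 6 passages was 0.41 against 1.52 for PPP1R15A, 0.37 against 1.10 for DDIT4, 0.49 against 0.87 for DDIT3 and 0.20 against 0.59 for CEBPB. For TRIB3 the SDs were alike, at 0.295 against 0.288. The difference in spread was not tested, and both folds share their untreated libraries.

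**Figure D3:**
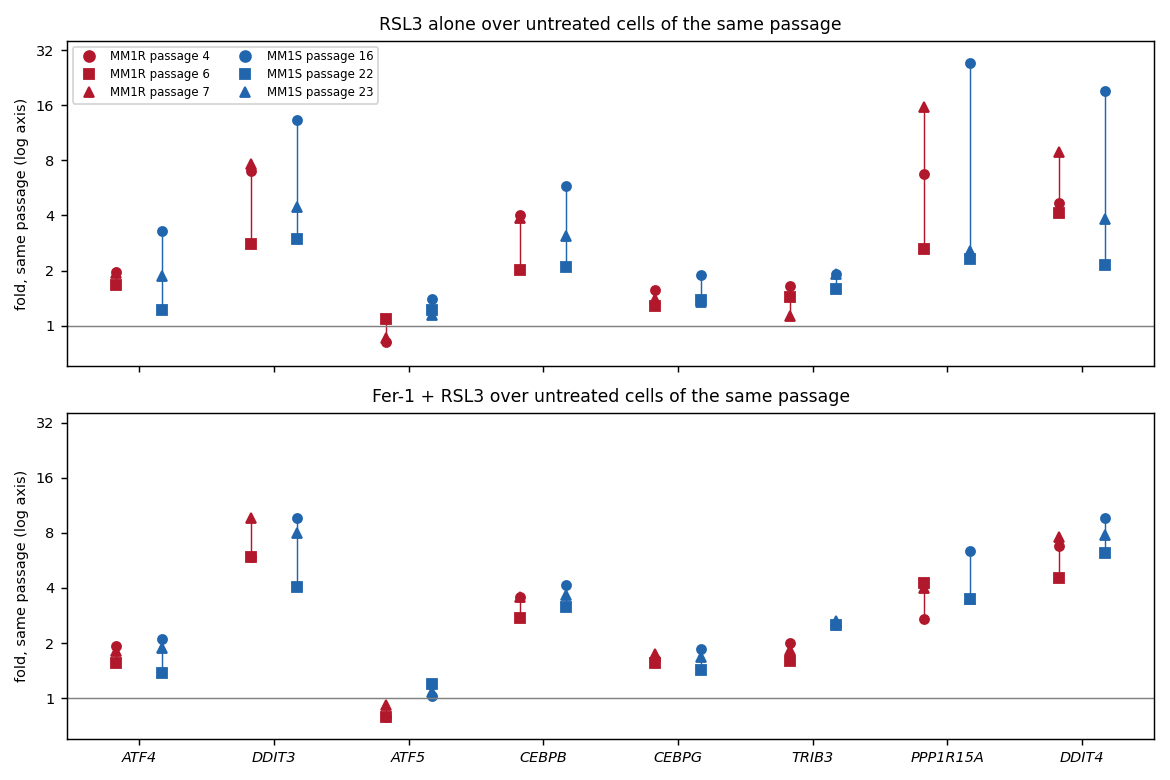
Fold of each member over untreated cells of the same passage (log axis), for RSL3 alone (top) and Fer-1 + RSL3 (bottom), with a symbol per passage. Folds of PPP1R15A run from 2.31 to 27.3 with RSL3 and from 2.69 to 6.36 with Fer-1 + RSL3.

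The next comparison asks whether the ferroptosis inhibitor changed the response. None of the 8 members was called between Fer-1 + RSL3 and RSL3 in MM1R (against 0% of all genes called), in MM1S (0%) or averaged over the lines (0.119%). At an unadjusted p under 0.05 the count of members was 0 in MM1R, 1 in MM1S and 2 for the average, where 881, 821 and 1826 of the 14281 genes passed it, and DESeq2 called 0 members in each. The groups overlapped for all 8 members in both lines, where 13.4% of all genes in MM1R and 8.79% in MM1S did not overlap. The averaged log2 difference was -0.12 for ATF4 (95% interval -0.41 to 0.17), 0.20 for DDIT3 (-0.36 to 0.76) and 0.06 for CEBPB (-0.35 to 0.46). It was 0.16 for CEBPG (-0.05 to 0.36), -0.17 for ATF5 (-0.38 to 0.04) and 0.06 for DDIT4 (-0.70 to 0.82), which became 0.70 without the RSL3 library of MM1S replicate 1 and -0.13 without that of replicate 2. These intervals leave room for changes that 3 libraries a group could not show.

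DDIT3 held 60.5, 44.1 and 69.6 CPM with Fer-1 + RSL3 in MM1R and 73.3, 63.9 and 75.7 CPM in MM1S. These levels lay within the range of the RSL3 libraries, although passage 6 of MM1R held 2.09-fold its own RSL3 level. CEBPB held 25.1, 19.2 and 23.8 CPM in MM1R and 33.6, 50.6 and 33.7 CPM in MM1S, and ATF4 held 939, 809 and 919 CPM in MM1R and 914, 1186 and 1029 CPM in MM1S. ATF4 was below its RSL3 level in 4 of 6 passages, by most in MM1S passage 16 (0.636-fold, against 0.931-fold to 0.985-fold in MM1R), and above it in the other two.

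TRIB3 and PPP1R15A, both negative regulators, were the members with an unadjusted p under 0.05 in the averaged comparison, with opposite signs. TRIB3 held 130, 98.2 and 116 CPM with Fer-1 + RSL3 in MM1R and 116, 207 and 140 CPM in MM1S. It was higher than with RSL3 alone in 6 of 6 passages, by 1.11-fold to 1.63-fold, and the averaged log2 difference was 0.45 (SE 0.16, FDR 0.264). With the passage as a replicate block it was 0.44 with an FDR of 0.0175. PPP1R15A held 141, 151 and 152 CPM with Fer-1 + RSL3 in MM1R and 239, 289 and 213 CPM in MM1S. It lay below RSL3 alone at the passages with the highest RSL3 levels (0.397-fold and 0.255-fold at MM1R passages 4 and 7, 0.233-fold at MM1S passage 16) and above it at the other 3. The averaged log2 difference was -1.06 (SE 0.43, FDR 0.315), and without the RSL3 library of MM1S replicate 1 it was -0.37.

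Against untreated cells, 6 of the 8 members were called higher with Fer-1 + RSL3. In each line these members were called higher (ATF4, DDIT3, CEBPB, CEBPG, TRIB3 and DDIT4), against 5.57% of all genes in MM1R and 2.60% in MM1S. For 7 members (these and PPP1R15A) all Fer-1 + RSL3 libraries lay above the untreated ones in each line. The share of all genes that did so was 16.5% in MM1R and 14.7% in MM1S. ATF5 lay wholly below the untreated libraries in MM1R, as did 14.1% of all genes, and overlapped them in MM1S. DDIT3 changed by a log2 fold of 2.80 (SE 0.41, FDR 0.00108) in MM1R and 2.69 (SE 0.41, FDR 0.00137) in MM1S, beside 2.56 and 2.53 with RSL3 alone. DDIT4 changed by 2.66 (SE 0.54, FDR 0.00671) and 2.93 (SE 0.56, FDR 0.00624), and held 199, 152 and 287 CPM in MM1R and 87.5, 90.3 and 67.1 CPM in MM1S. CEBPB changed by 1.71 (SE 0.29, FDR 0.00225) and 1.82 (SE 0.28, FDR 0.0016). These calls of DDIT3, CEBPB and DDIT4 held without any one library. The comparisons with RSL3 and with Fer-1 + RSL3 use the same untreated libraries.

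TRIB3 changed by a log2 fold of 0.86 (SE 0.23, FDR 0.0291) in MM1R and 1.35 (SE 0.23, FDR 0.00336) in MM1S with Fer-1 + RSL3 against untreated cells, and CEBPG by 0.72 (SE 0.14, FDR 0.00493) and 0.70 (SE 0.14, FDR 0.00733). CEBPG held 83.2, 74.8 and 75.1 CPM in MM1R and 88.7, 92.5 and 86.6 CPM in MM1S. ATF4 changed by 0.82 (SE 0.19, FDR 0.0154) and 0.76 (SE 0.19, FDR 0.0333). The TRIB3 call in MM1R was lost (FDR 0.0643 to 0.0951) without any untreated MM1R library or the Fer-1 + RSL3 library of replicate 1 or 3. The ATF4 call was lost in MM1S (0.0522 to 0.144) without any Fer-1 + RSL3 library or the untreated library of replicate 1 or 3, and in MM1R (0.0518) without the untreated library of replicate 3.

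PPP1R15A was called by the main fit with RSL3 but not with Fer-1 + RSL3, at a log2 fold change of 1.82 (SE 0.62, FDR 0.0786) in MM1R and 2.03 (SE 0.62, FDR 0.0752) in MM1S. All 6 passages were higher, and with the passage as a replicate block the FDR was 0.0448 and 0.0467, by DESeq2 0.0472 and 0.0315, and with only the compared groups fitted 6.4e-05 and 0.00581. Without the RSL3 library of MM1S replicate 1, the FDR was 0.0111 in MM1R and 0.00781 in MM1S. It was also under 0.05 without the RSL3 library of MM1R replicate 2 (0.0456 and 0.0424) and, in MM1S, of MM1S replicate 3 (0.0476). The difference from RSL3 alone is the one given above, which was not called.

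The lines were then compared. No member was called for a difference between MM1R and MM1S in the RSL3 response (against 0% of all genes), 1 member (ATF5) had an unadjusted p under 0.05, and DESeq2 called 0. The differences in log2 response (MM1R minus MM1S) were -0.04 for ATF4 (95% interval -0.62 to 0.53), 0.03 for DDIT3 (-1.13 to 1.19), 0.01 for CEBPB (-0.79 to 0.81) and 0.13 for PPP1R15A (-1.67 to 1.94). For ATF5 it was -0.46 (-0.88 to -0.04, FDR 1.00). For DDIT4 it was -0.28 (-1.83 to 1.28), for CEBPG -0.10 (-0.51 to 0.31) and for TRIB3 -0.33 (-1.02 to 0.35). Single libraries moved several of these values. Without the RSL3 library of MM1S replicate 1 the difference was 1.53 for PPP1R15A, 1.02 for DDIT4 and 0.53 for DDIT3, and without that of MM1R replicate 3 it was -0.48 for PPP1R15A and -0.83 for DDIT4.

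In untreated cells, 1 of 8 members differed between the lines, against 10.5% of all genes. ATF5 was higher in MM1R, at 27.9 ± 1.18 CPM against 18.8 ± 1.43 (SD, n = 3), with a log2 fold change of 0.57 (SE 0.14, FDR 0.0173). The call was lost without the untreated library of MM1R replicate 3 (FDR 0.0636), MM1S replicate 2 (0.0632) or MM1S replicate 3 (0.0804). DDIT4 stood at 33.7 ± 4.32 CPM in MM1R and 10.7 ± 3.27 CPM in MM1S with no overlap, at a log2 fold change of 1.65 (SE 0.54, FDR 0.0623), and had an FDR of 0.00322 without the RSL3 library of MM1S replicate 1, 0.0411 or 0.0413 without those of replicates 2 and 3, and 0.0470 without that of MM1R replicate 3. CEBPB stood at 6.92 ± 0.223 CPM in MM1R and 11.1 ± 4.29 CPM in MM1S, at a log2 fold change of -0.68 (SE 0.29, FDR 0.150). Line and passage number differ together, so they cannot be told apart here.

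The remaining 2 members could not be assessed. SESN2 (1:28586029-28609002), whose product senses leucine and inhibits mTORC1, had 0 to 13 counts a library and 64 counts in all. Its highest count, 13, came from the RSL3 library of MM1S passage 16, and 4 libraries were at 0. The symbol is listed in a second row that is at 0 throughout. The table lists 2362 symbols in this way, and for 1537 of them the first row is at 0 in all libraries. Its neighbours ATP5IF1 (0 counts in all libraries) and MED18 (0 to 2 counts) are also listed in a second row, whereas DNAJC8, also listed in a second row, had 1768 to 2945 counts and PHACTR4, listed in 1 row, had 582 to 1095. Whether the low counts of SESN2 come from expression or from this double listing was not tested. NUPR1 (16:28544029-28550329), a small nuclear stress protein, had 1 count in the RSL3 library of MM1S passage 16 and 0 in the other 17 libraries. A count of 0 allows up to 3 counts in a library, counting error only.

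The kinases that feed the pathway were read from a list of 13 genes of eIF2 phosphorylation, all tested. Averaged over the lines, 4 were higher with RSL3 and 1 was lower, against 8.70% and 6.81% of all genes called in those directions, and the median log2 fold change was 0.07 where that of all genes was 0.00. EIF2AK3 (PERK), the endoplasmic reticulum stress kinase, rose by 1.56 (SE 0.27, FDR 0.00122), and EIF2AK4 (GCN2), the amino acid sensor, by 0.43 (SE 0.10, FDR 0.00913). EIF2AK1 (HRI), the heme-regulated kinase, changed by -0.05 (SE 0.06, FDR 0.673), EIF2AK2 (PKR), the double-stranded RNA kinase, by -0.29 (SE 0.11, FDR 0.0838), and PPP1R15B, the constitutive counterpart of PPP1R15A, by 0.37 (SE 0.14, FDR 0.0803). DNAJC3, an inhibitor of PERK, rose by 0.38 (SE 0.10, FDR 0.0200). EIF2AK3 held 354, 127 and 249 CPM with RSL3 in MM1R against 151, 144 and 144 CPM with Fer-1 + RSL3, and its averaged log2 difference with Fer-1 was -0.88 (SE 0.27, FDR 0.193). Averaged over the lines, the main fit called none of the 13 genes for Fer-1 + RSL3 against RSL3, against 0.119% of all genes. An unadjusted p under 0.05 was found for 3 of them and for 1826 of all 14281 genes. DESeq2 called EIF2AK4 alone, where it called 229 of 12883 genes. These are transcript levels, and the activity of the kinases was not measured.

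Of 40 further ATF4 target genes, 36 were tested, and 20 were higher and 0 lower with RSL3 averaged over the lines, against 8.70% and 6.81% of all genes, with a median log2 fold change of 0.52. In each line 9 of the 36 were called higher and 0 lower, against 2.00% of all genes called higher in MM1R and 2.50% in MM1S. This list and those below were also chosen with earlier results of these data known, so their shares are no test of them. ATF3, a stress-induced repressor, rose by 4.32 (SE 0.60, FDR 0.000249), CHAC1, a glutathione-degrading enzyme, by 2.50 (SE 0.40, FDR 0.000728), and SLC7A11, the cystine importer, by 2.26 (SE 0.25, FDR 5.72e-05). With Fer-1 + RSL3 against RSL3 averaged over the lines, the main fit and DESeq2 each called 0 of the 36. Over all genes the main fit called 0.119% and DESeq2 229 of 12883. An unadjusted p under 0.05 was found for 10 of the 36 and for 1826 of all 14281 genes. A positive difference was found for 29 of the 36, with a median of 0.14, and for 50.4% of all genes. CHAC1 held 76.7, 65.6 and 112 CPM with RSL3 and 197, 135 and 262 CPM with Fer-1 + RSL3 in MM1R, and its averaged log2 difference was 1.28 (SE 0.38, FDR 0.184). ATF3 differed the other way, by -1.21 (SE 0.52, FDR 0.347), and SLC7A11 by 0.43 (SE 0.23, FDR 0.454).

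Of 10 CHOP-linked death and oxidase genes, 4 were higher with RSL3 and 0 were lower (8.70% and 6.81% of all genes), with a median log2 fold change of 0.47. BBC3 (PUMA) rose by 1.94 (SE 0.33, FDR 0.00115), PMAIP1 (NOXA) by 1.80 (SE 0.26, FDR 0.000325) and BCL2L11 (BIM) by 1.64 (SE 0.31, FDR 0.00232), and all of these encode pro-apoptotic members of the BCL2 family. With Fer-1 + RSL3 against RSL3 averaged over the lines, the main fit called none of the 10, against 0.119% of all genes. DESeq2 called BCL2L11 alone, where it called 229 of 12883 genes. An unadjusted p under 0.05 was found for 3 of the 10 and for 1826 of all 14281 genes. A positive difference was found for 2 of the 10 and for 50.4% of all genes. BCL2L11 held 777, 277 and 782 CPM with RSL3 in MM1R and 219, 196 and 160 CPM with Fer-1 + RSL3, and its averaged log2 difference was -1.58 (SE 0.31, FDR 0.0545). PMAIP1 differed by -0.10 (SE 0.25, FDR 0.913) in that comparison.

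Of 20 genes of the IRE1 and ATF6 arms of the unfolded protein response, which run beside the PERK arm, 8 were higher with RSL3 and 0 were lower (8.70% and 6.81% of all genes), with a median log2 fold change of 0.23. DNAJB9, a chaperone of the endoplasmic reticulum, rose by 1.36 (SE 0.20, FDR 0.000369), ERN1, which encodes IRE1 itself, by 0.54 (SE 0.11, FDR 0.00451), and HSPA5 (BiP) by 0.49 (SE 0.08, FDR 0.000908). Of 11 paralogs of the members, 7 were tested and 2 rose, against 8.70% of all genes, namely TRIB1, a relative of TRIB3, by 1.38 (SE 0.27, FDR 0.00308) and SESN3, a relative of SESN2, by 1.05 (SE 0.30, FDR 0.0247). With Fer-1 + RSL3 against RSL3 averaged over the lines, the main fit called 0 of the 20 genes and 0 of the 7 paralogs. It called 0.119% of all genes. At an unadjusted p under 0.05 the counts were 3 of the 20 and 2 of the 7, where 1826 of all 14281 genes passed. DESeq2 called DNAJB9 and TRIB1, where it called 229 of 12883 genes. DNAJB9 differed by -0.66 (SE 0.20, FDR 0.187), TRIB1 by -1.15 (SE 0.27, FDR 0.0926) and SESN3 by 0.66 (SE 0.29, FDR 0.353).

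**Figure D4:**
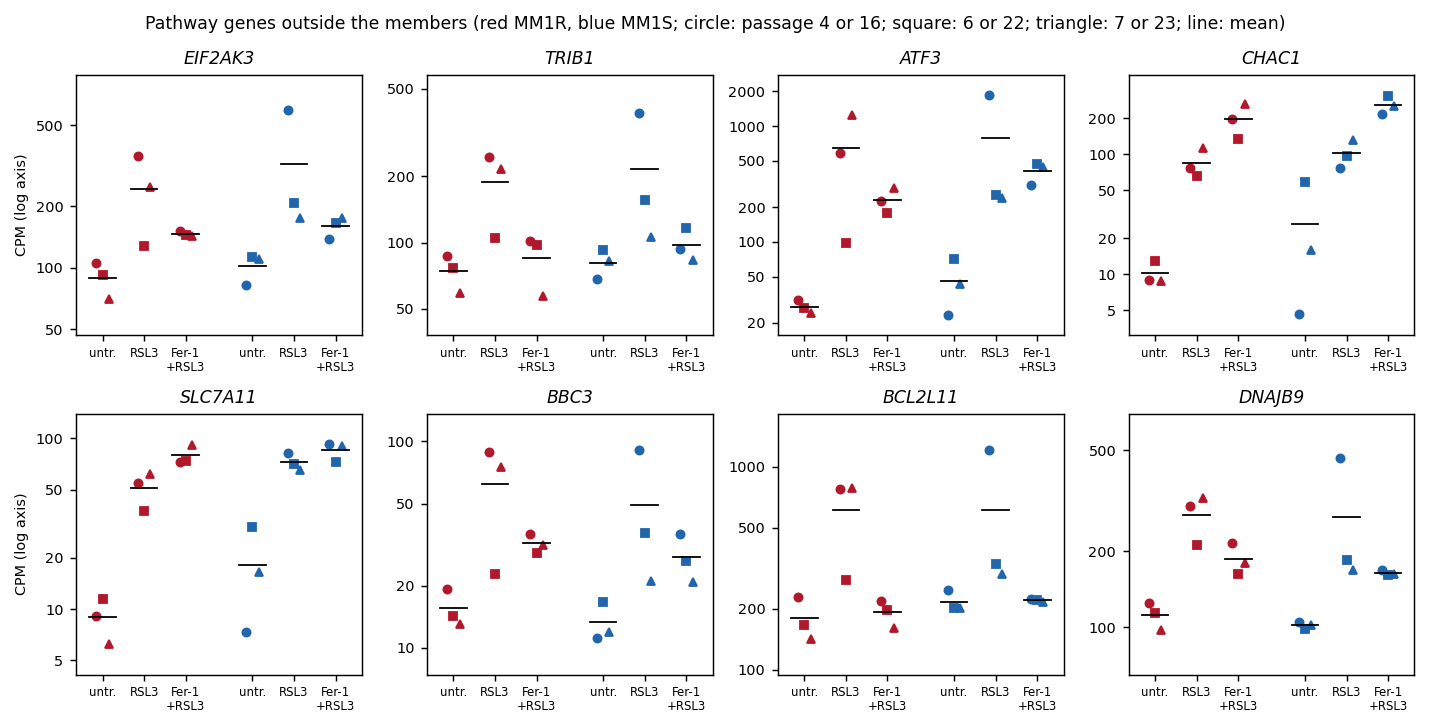
Level of 8 pathway genes outside the members in every library, as CPM on a log axis, with a line at the mean of 3 libraries. BCL2L11 lies at 160 to 224 CPM with Fer-1 + RSL3 and at 277 to 1216 CPM with RSL3, while CHAC1 lies at 135 to 308 CPM and at 65.6 to 132 CPM.

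Over the 18 libraries, the members with the strongest common pattern were ATF4, DDIT3, CEBPB and CEBPG. Pearson's r of log2(CPM + 1) was 0.954 for ATF4 with CEBPB, 0.948 for DDIT3 with CEBPB, 0.947 for CEBPB with CEBPG and 0.910 for ATF4 with DDIT3. PPP1R15A had an r of 0.901 with DDIT3, 0.891 with CEBPB and 0.886 with ATF4, but 0.775 with CEBPG and 0.565 with TRIB3. Values of DDIT4 with the members other than ATF5 lay between 0.506 and 0.737. For ATF5, r with the other members lay between -0.230 and 0.442. Outside the members, the genes most like ATF4 were SLC3A2 (0.950), PMAIP1 (0.944) and ADRA1A (0.942), those most like DDIT3 were SLC3A2 (0.965), ZSCAN26 (0.964) and GCC1 (0.956), and those most like TRIB3 were ROCK1P1 (0.954), MED8 (0.940) and MKX (0.911). These values describe libraries that share treatments, passages and depth, and carry no test.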

How the data were processed

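RNA sequencing of 18 libraries was analysed. The authors sequenced paired-end reads on a BGISEQ-500, checked them with FastQC 0.11.5 and aligned them to hg19 with STAR 2.7.3a. They deposited raw counts for 43735 genes, which were used here, and, for 29553 genes, those counts scaled by DESeq2 size factors. The deposited normalized values, a signal scale, served as an alternative only. The counting tool, annotation and strand setting are not given in the sources used here, so overlapping genes are uncertain. Every column was matched to its sample by label.

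Genes with low counts were removed with filterByExpr (minimum count 10), which kept 14281, and 15877 genes had 0 counts throughout. Libraries were scaled by TMM and fitted in 1 model of 6 group means with 12 residual degrees of freedom (edgeR 4.0.16, R 4.3.3). Groups were compared with the quasi-likelihood F-test, two-sided, with Benjamini-Hochberg adjustment over all genes tested (FDR), and SEs and intervals were taken from its F statistic. "Rose" means an FDR under 0.05. Replicates are labelled as separate passages, and p-values measure the spread between them. Libraries of a group differed by more than sampling noise (chi-square per degree of freedom of at least 7.66 in 18 pairs).

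Replicate numbers stand for passages, which pair libraries within a line per the labels. Deviations from the group means of same-passage libraries had a median r of 0.250 in MM1R (0.0338 to 0.516, 9 pairs) and 0.416 in MM1S (0.216 to 0.681, 9 pairs). With passage added as a replicate block, the fit had 8 residual degrees of freedom. Other alternatives were DESeq2 1.42.0, RLE scaling, no filter, limma 3.58.1 with trend on log2 of the normalized values plus 1, only the groups compared, a log2 fold change over 1, and leaving out each library. The interactions of line with Fer-1 + RSL3 were added after the data were seen. The members and gene lists were chosen with earlier results of these data known. Named genes are the 10 members, the eIF2 kinases and PPP1R15B, up to 3 genes of each list with the largest change among those called in the averaged RSL3 comparison, and the 3 genes most like ATF4, DDIT3 and TRIB3. Positions come from an hg19 annotation joined by symbol. The steps were tested on simulated data.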

Additional observations from a re-analysis of the deposited data

Results flagged for a closer look

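ATF5 differed in sign between the lines when Fer-1 + RSL3 was set against untreated cells. It was lower in all 3 MM1R passages (0.790-fold, 0.790-fold and 0.921-fold at passages 4, 6 and 7) and higher in all 3 MM1S passages (1.03-fold, 1.20-fold and 1.08-fold at passages 16, 22 and 23). The fitted log2 fold change was -0.26 (SE 0.14, FDR 0.271) in MM1R and 0.14 (SE 0.14, FDR 0.681) in MM1S. The test of the difference itself, chosen after seeing the data, gave -0.40 (SE 0.20, 95% interval -0.82 to 0.03, FDR 1.00 by edgeR), which did not pass the threshold. Groups of 3 libraries are too small for the test of single outlying libraries.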

How the results depend on the processing

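Averaged over both lines, the 7 calls with RSL3 held under every alternative but the requirement of a log2 fold change over 1 (4 members), and no called value changed sign under any alternative. In MM1R the count of 5 ranged from 2 to 6 without single libraries, and in MM1S the count of 6 from 2 to 7. With only the compared groups fitted, MM1S gave 0 members, in a fit of 6 libraries that called 3 genes in all. For Fer-1 + RSL3 against RSL3, the fit with a replicate block called 1 member (TRIB3) for the average, and without the filter on low counts 1 member was called in MM1R (PPP1R15A), 2 in MM1S and 2 for the average (TRIB3 and PPP1R15A). Without that filter the prior degrees of freedom of the fit rose from 4.66 to 1727, which leaves a gene's own spread almost no weight. For Fer-1 + RSL3 against untreated in MM1R, 3 members also passed a log2 fold change of 1, where 6 were called. For the untreated lines, where 1 was called, the count was 4 without the filter, 2 with the normalized values, 2 with only these groups, 2 with DESeq2, 0 with a log2 fold change over 1, and 0 to 2 without single libraries.

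The fit with a replicate block changed the member calls that are given beside the results, and no other. Over all genes, it called 1868 in place of 480 for RSL3 in MM1R, 1904 in place of 524 in MM1S, and 4345 in place of 2215 averaged. For Fer-1 + RSL3 against RSL3 it called 25 and 8 genes in the lines in place of 0, and 338 in place of 17 averaged, and against untreated cells 3173 in place of 1317 in MM1R and 2093 in place of 659 in MM1S. Without the filter the counts were 1014 and 1214 for RSL3 in the lines, and 271, 308 and 571 for Fer-1 + RSL3 against RSL3 in MM1R, in MM1S and averaged. For the untreated lines no paired analysis was possible because the lines share no passage. DESeq2 called 941 genes for RSL3 in MM1R and 1032 in MM1S, and 1158 for Fer-1 + RSL3 against untreated in MM1S. It called 229 genes for Fer-1 + RSL3 against RSL3 averaged, and 38 in MM1R and 7 in MM1S, where the main fit called 0. Of the log2 fold changes of single members, leaving aside the 2 interactions added after the data were seen, 58 values without single libraries and 7 under the other alternatives changed sign, none of them called. With 3 libraries a group, the intervals of PPP1R15A and DDIT4 remained wide.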
